A study of Mus musculus with 6 samples.

Results

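The MHC class I molecule is the cell surface complex that shows peptides from inside the cell to CD8+ T cells, and RNA of 10 genes of this pathway was examined in HT22 cells exposed to aluminum (Al). The genes were chosen by symbol and set around B2m, the gene of the light chain. They are B2m, the heavy chain genes H2-K1, H2-D1 and H2-T23, the peptide transporter genes Tap1 and Tap2, tapasin (Tapbp) and its relative Tapbpl, the peptide-trimming enzyme Erap1, and Nlrc5, a transactivator of class I genes. All 10 have a row among the 21878 gene symbols of the deposited table, and each has at least 1 read in 1 of the libraries.

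HT22 is an immortalised line derived from mouse hippocampal neurons. The Al group (3 libraries) received 120 µM aluminum maltolate and the control group (3 libraries) received none. The study's general treatment methods give harvest after 24 h, and its sequencing methods do not name the time. The study's methods give the name control to cells in plain medium and list cells given maltol alone apart from them, and the sequenced group is called control; the labels do not say whether it held maltol. If it held none, the effect of maltol and that of Al cannot be told apart in these libraries. The study reports preliminary experiments in which maltol alone did not significantly change viability or senescence markers of HT22 cells. Every library is the non-enriched input of an m6A immunoprecipitation experiment, made from fragmented RNA. The replicates are described as biological. Whether they came from separate cultures on separate days is not given, so p-values measure only the spread between these libraries.

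In background terms, class I heavy chains are made in the endoplasmic reticulum, where calnexin and calreticulin help them fold with the B2m light chain. Peptides cut by the proteasome are pumped in by the Tap1 and Tap2 transporter, trimmed by Erap1 and loaded with the help of tapasin, and only then does the complex travel to the surface. Interferons raise many of these genes together through factors such as Irf1 and Nlrc5, and resting neurons are known for low class I expression.

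The class I promoters share elements that link the heavy chains and the light chain. The 250 bases before a RefSeq start of 4 members are shown because they let the reader set the promoter of B2m beside those of its classical heavy chains and of Tap1. The sequences are RefSeq's on GRCm38.p6 and run 5′ to 3′ on the strand of the gene. Capitals mark matches, on either strand, to the interferon regulatory factor core AANNGAAA, the kappa B pattern GGGNNTTCC, the cAMP response half-site TGACG and the CCAAT box. The B2m window is chr2:122147437-122147686 on the plus strand, that of H2-D1 is chr17:35262844-35263093 on the plus strand (inside the gene's span in GENCODE, which begins at 35262730), that of H2-K1 is chr17:34000348-34000597 on the minus strand (for 1 of its listed starts), and that of Tap1 is chr17:34187306-34187555 on the plus strand.
B2m: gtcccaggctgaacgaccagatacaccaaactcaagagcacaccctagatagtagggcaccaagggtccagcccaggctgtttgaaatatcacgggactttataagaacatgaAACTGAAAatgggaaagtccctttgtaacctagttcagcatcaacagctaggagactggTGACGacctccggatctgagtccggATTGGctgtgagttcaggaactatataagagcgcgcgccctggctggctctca
H2-D1: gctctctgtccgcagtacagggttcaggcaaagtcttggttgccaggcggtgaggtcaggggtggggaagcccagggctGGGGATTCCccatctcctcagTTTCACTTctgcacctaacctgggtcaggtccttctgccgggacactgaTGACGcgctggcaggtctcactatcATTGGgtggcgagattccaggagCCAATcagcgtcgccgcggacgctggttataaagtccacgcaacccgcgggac
H2-K1: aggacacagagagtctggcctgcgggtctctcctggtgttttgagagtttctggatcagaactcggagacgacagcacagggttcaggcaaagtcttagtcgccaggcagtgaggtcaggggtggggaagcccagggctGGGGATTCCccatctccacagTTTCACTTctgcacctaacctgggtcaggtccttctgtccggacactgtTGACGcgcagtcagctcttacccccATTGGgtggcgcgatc
Tap1: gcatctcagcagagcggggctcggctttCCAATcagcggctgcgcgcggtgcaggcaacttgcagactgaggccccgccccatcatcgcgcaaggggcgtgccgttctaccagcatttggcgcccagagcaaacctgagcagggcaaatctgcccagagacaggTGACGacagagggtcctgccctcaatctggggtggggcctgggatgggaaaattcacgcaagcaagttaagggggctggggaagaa

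In the windows of H2-D1 and H2-K1 the kappa B pattern, the interferon regulatory factor core, the half-site and a CCAAT box followed each other in the same order, and over 190 aligned bases these windows were 87.4% identical. The B2m window held the interferon regulatory factor core, the half-site and a CCAAT box in the same order, without the kappa B letters as written here. The Tap1 window held the half-site and a CCAAT box. Of 32851 promoter windows of this length, 21.3% held AANNGAAA, 17.8% held TGACG and 33.8% held CCAAT, whereas 4.98% held GGGNNTTCC. No match of 1 motif overlapped that of another in the sequences shown. RefSeq promoters were matched for 7 members by symbol, with 1 window read per gene. In the other windows, H2-T23 had 2 cores and a CCAAT box, Tapbp had 2 CCAAT boxes and Erap1 had none of the motifs. The Tapbp window (from 33919228) and the Erap1 window (from 74639603) lie inside the gene spans in GENCODE, which begin at 33915899 and 74639568. The H2-T23 window runs into the gene's span. A match of letters is a description and not a site of binding, and no binding was measured here.

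RNA levels were read as FPKM, the fragments of a gene divided by its length and by the size of the library, as deposited. Whole reads behind these values were recovered for all 17688 genes above 0, giving 38059492 to 44556768 reads per control library and 21125631 to 26670978 per Al library. The 50 most abundant genes took 18.0% to 19.4% of the summed FPKM in the control libraries, against 30.0% to 32.5% in the Al libraries. Fold changes were therefore computed after division by median-of-ratios size factors, between 0.799 and 1.20, and limma's moderated test gave the calls. To be called, a gene needed p below 0.05 before adjustment and a log2 fold change beyond 0.58 in either direction. On this basis 26.2% of the 12889 tested genes were called higher and 24.4% lower in the Al group. After scaling, all Al libraries lay above all control libraries for 35.1% of these genes and below them for 33.1%, and on the deposited scale for 20.1% and 50.1%. Where 3 values of a group are given, they follow the order of replicates 1, 2 and 3. The cell line was also read against its labels. Of 8 neuronal marker genes 7 stayed under 1 FPKM in every library, with Snap25 and Nefm at 0 throughout, and Tubb3 alone was above. The summed level of these markers was 5.21 to 5.55 FPKM in the control and 2.51 to 3.96 FPKM in the Al libraries as deposited, and after scaling the ranges overlapped (4.41 to 4.75 and 3.10 to 4.96). Tubb3 was not called after size factors (-0.19) or under quantile normalization (0.10) and was called lower on the deposited scale (-0.66) and with equal FPKM sums (-0.95).

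The tested members went in both directions, as tested genes did at large. B2m and H2-D1, the abundant pair, rose together, and the transporter genes Tap1 and Tap2 and the tapasin relative Tapbpl fell. H2-T23 rose from a low level, Tapbp and Erap1 were not called, and H2-K1 and Nlrc5 were too low to test. Of the 8 members tested, 3 were called higher and 3 lower, beside 26.2% and 24.4% of all tested genes, and the same counts held at the adjusted p, beside 25.5% and 23.7%. The median log2 fold change of the 8 was 0.26, beside 0.03 for all tested genes.

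**Figure D1:**
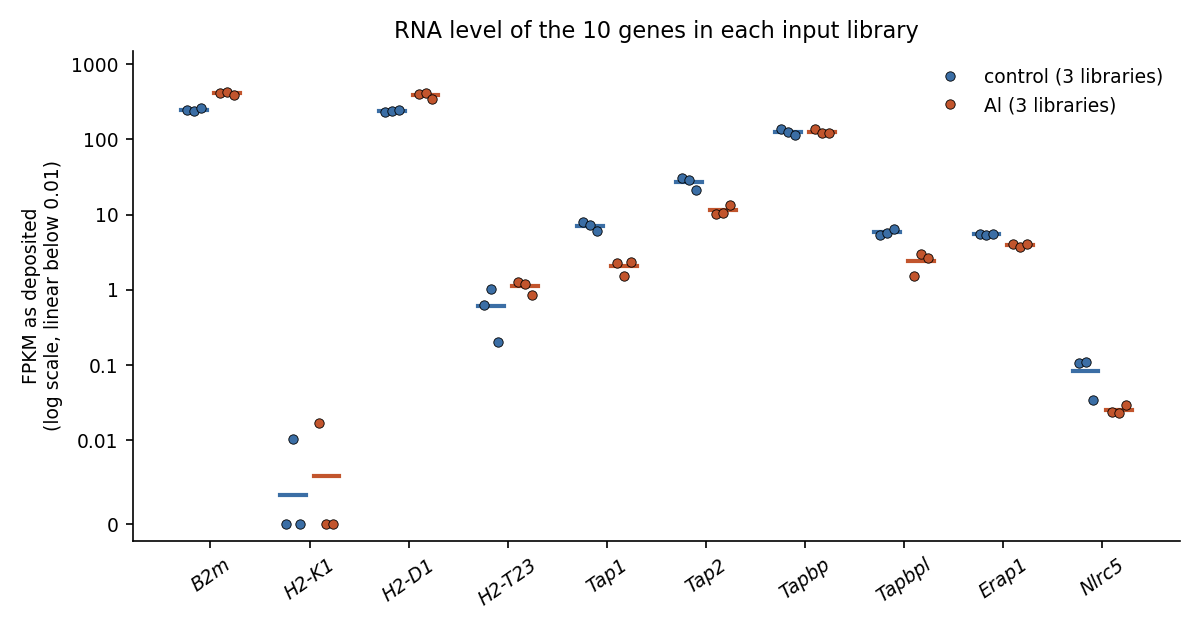
FPKM as deposited (log axis, linear below 0.01) of the 10 genes in each of the 3 control (blue) and 3 Al (orange) libraries, with points for libraries and bars for group means. B2m and H2-D1 lie between 233 and 424 FPKM in every library, with all Al points above all control points, while H2-K1 lies at or near 0 and the Al points of Tap1, Tap2 and Tapbpl lie below the control points.

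B2m encodes beta-2 microglobulin, the invariant light chain without which most class I heavy chains do not reach the surface. Its level was 247, 235 and 257 FPKM in the control libraries, against 413, 424 and 389 FPKM in the Al libraries. Every Al library lay above every control library. The means were 246 ± 11.3 and 409 ± 18.0 FPKM (SD, n = 3 each), resting on 7046 to 9837 reads per library. After scaling, the log2 fold change was 1.22 with an SE of 0.15 (95% interval 0.88 to 1.56), or 2.33-fold, with an adjusted p of 0.000178 in limma. The call was lost with equal FPKM sums (0.43) and under quantile normalization (0.48). The gene lies on chromosome 2 at 122147686 to 122153083 on the plus strand (GRCm38), and in its reference transcript none of the 761 windows of 100 bases occurs in a transcript of another gene (0%). The study's assay of mitochondrial DNA also uses B2m as its nuclear reference; that assay counts copies of the gene, which these RNA values do not measure.

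H2-D1, a classical heavy chain that presents peptides to CD8+ T cells, was nearly as abundant as B2m. Its level was 233, 236 and 248 FPKM in the control libraries, against 396, 416 and 346 FPKM in the Al libraries. The groups did not overlap, and Al replicate 3 was the lowest of the Al libraries, as it was for B2m. The means were 239 ± 8.12 and 386 ± 35.8 FPKM (SD, n = 3 each) on 12698 to 19206 reads per library. The log2 fold change of H2-D1 was 1.17 with an SE of 0.16 (95% interval 0.80 to 1.54) and an adjusted p of 0.000331 in limma, and the call was lost with equal FPKM sums (0.39) and under quantile normalization (0.46). H2-D1 lies on chromosome 17 at 35262730 to 35267499 on the plus strand, and 4.64% of the 2003 windows of 100 bases in its reference transcript occur in transcripts of other genes, 2.30% in those of H2-T23.

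H2-K1, the other classical heavy chain of the list, was almost absent from the table. It had 1 read in control replicate 2 (0.0106 FPKM), 1 read in Al replicate 1 (0.0172 FPKM) and 0 reads in the other 4 libraries, where a count of 0 allows up to 3 reads, or 0.0309 to 0.0653 FPKM. These 2 reads were 0.00202% of the 99218 reads of H2-K1 and H2-D1 together (exact 95% binomial interval 0.000244% to 0.00728%, which covers counting error only). H2-K1 lies on chromosome 17 at 33996017 to 34000347 on the minus strand. Its reference transcript shares 0% of its 1520 windows of 100 bases with transcripts of any other gene, H2-D1 included. Classical heavy chain genes differ in sequence between mouse strains. The alleles of these cells were not analysed here, so the values are those of reads assigned to each gene on the reference, and no fold change is given for H2-K1.

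H2-T23 encodes Qa-1, a non-classical heavy chain that displays leader peptides of other class I molecules to natural killer cell receptors. It was measured at 0.638, 1.01 and 0.204 FPKM in the control libraries, against 1.28, 1.18 and 0.863 FPKM in the Al libraries, on 12 to 58 reads per library. The deposited values overlapped between groups, since control replicate 2 lay above Al replicate 3, and after scaling they did not. The log2 fold change of H2-T23 was 1.35 with an SE of 0.44 (95% interval 0.34 to 2.35) and an adjusted p of 0.0253 in limma, and it was not called on the deposited scale (0.92) or with equal FPKM sums (0.66). Without control replicate 3 the value was 0.83 and still called, and with a pseudocount of 1 it was 0.63. Of the 1373 windows of 100 bases in its reference transcript, 7.28% occur in transcripts of other genes, 3.35% in those of H2-D1, so reads of this gene could have been split or shared and its value is uncertain. It lies on chromosome 17 at 36029773 to 36032855 on the minus strand.

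H2-D1 made up most of the heavy chain RNA in this table. Among the 17 heavy chain genes of the MHC that were listed, it took 90.3%, 90.7% and 92.7% of the summed FPKM in the control libraries, against 95.2%, 96.0% and 93.6% in the Al libraries, so that each Al library lay above each control library. On the deposited scale the other 16 together summed to 19.6 to 25.1 FPKM in control and 17.4 to 23.9 FPKM in Al libraries, ranges that overlap. Size factors were 1.17 to 1.20 in control and 0.799 to 0.929 in Al libraries, so scaling lifts the Al sums relative to the control sums. H2-M3, which presents formylated peptides, and H2-T22 were the next in level. H2-M3 was at 13.3 to 16.1 FPKM in control and 6.90 to 13.9 FPKM in Al libraries, and H2-T22 at 4.28 to 6.11 and 4.10 to 5.69 FPKM. Neither was called (log2 fold changes -0.17 and 0.51). Of 9 other heavy chain genes tested, 2 were called higher and 1 lower, beside 26.2% and 24.4% of all tested genes. Their median log2 fold change was 0.51. With equal FPKM sums 1 was called higher and 3 lower, beside 1200 and 6843 of all 12889 tested genes. H2-T24 rose from 0.684 ± 0.203 to 2.54 ± 0.719 FPKM (SD, n = 3 each; log2 fold change 2.20, adjusted p = 0.000323 in limma). The other called genes, named after their values were seen to complete the count, were H2-Q1 (log2 fold change 1.16) at 0.103 to 0.631 FPKM and H2-M5 (log2 fold change -1.30), which had 5 to 19 reads in control and 0 to 1 in Al libraries. H2-M5 was not called with a pseudocount of 1 (-0.24), without control replicate 2 or with voom, and fell below the level for testing without control replicate 1. H2-Q1 was not called under the other 3 scalings (0.82 as deposited) or without control replicate 1 (0.90) or Al replicate 1 (0.88), and its transcripts share stretches of 100 bases with those of H2-D1, so its value is uncertain.

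Tap1 and Tap2 encode the partners that form the transporter that moves peptides into the endoplasmic reticulum, and both fell. Tap1 was at 8.04, 7.36 and 5.97 FPKM in the control libraries, against 2.27, 1.52 and 2.36 FPKM in the Al libraries. The lowest control library was 2.53 times the highest Al library on this scale and 1.80 times after scaling. Tap1 rested on 791 to 950 reads in control and 99 to 180 reads in Al libraries, and its log2 fold change was -1.29 with an SE of 0.19 (95% interval -1.72 to -0.86) and an adjusted p of 0.000443 in limma. Tap2 was at 30.3, 28.5 and 21.4 FPKM in the control libraries, against 10.3, 10.5 and 13.5 FPKM in the Al libraries, again without overlap. Its log2 fold change was -0.73 with an SE of 0.14 (95% interval -1.04 to -0.41) and an adjusted p of 0.0018 in limma, on 572 to 3078 reads per library. Tap1 and Tap2 were called lower under every scaling tried. They lie close together on the plus strand of chromosome 17, at 34187553 to 34197225 and 34203527 to 34216321. Whether the reads were counted by strand is not given in the sources used here.

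Tapasin bridges the transporter and the class I molecule, and its gene Tapbp was the third most abundant of the members. Tapbp was at 136, 127 and 113 FPKM in the control libraries, against 137, 121 and 122 FPKM in the Al libraries. The deposited values of the groups overlapped. After scaling the log2 fold change was 0.51 with an SE of 0.13 (95% interval 0.20 to 0.81), short of the fold needed for a call although the adjusted p was 0.00954 in limma, and its sign turned under equal FPKM sums (-0.28) and quantile normalization (-0.14). Without Al replicate 3 it was called (0.61). Tapbp lies on chromosome 17 at 33915899 to 33929292 on the plus strand.

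Tapbpl encodes TAPBPR, a tapasin relative that edits the bound peptide outside the transporter complex. It was at 5.37, 5.64 and 6.47 FPKM in the control libraries, against 1.55, 3.01 and 2.66 FPKM in the Al libraries. Al replicate 1 was the lowest and every Al library lay below every control library. The log2 fold change of Tapbpl was -0.81 with an SE of 0.23 (95% interval -1.33 to -0.30) and an adjusted p of 0.0124 in limma, on 86 to 600 reads per library. It was not called without Al replicate 1 (-0.57) or under quantile normalization (-0.50). Tapbpl lies outside the MHC, on chromosome 6 at 125223933 to 125231860 on the minus strand.

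Erap1 encodes the aminopeptidase that trims peptides to the length that fits the class I groove. It was at 5.57, 5.31 and 5.46 FPKM in the control libraries, against 4.10, 3.66 and 4.08 FPKM in the Al libraries. On this scale every Al library lay below every control library, as for 50.1% of all tested genes, and after scaling the groups overlapped. The log2 fold change was 0.02 with an SE of 0.13 (95% interval -0.27 to 0.31) and an adjusted p of 0.894 in limma, and the sign turned on the deposited scale (-0.46) and under equal FPKM sums, where Erap1 was called lower (-0.75). Erap1 is on chromosome 13 at 74639568 to 74693201, on the plus strand.

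Nlrc5, which in other cells drives the promoters of heavy chains, B2m and Tap1, was near the lower limit of the data. It had 32, 38 and 12 reads in the control libraries, against 5, 4 and 5 reads in the Al libraries. In FPKM these were 0.106, 0.111 and 0.0341 against 0.0237, 0.0232 and 0.0300. The deposited values did not overlap, but after scaling control replicate 3 (0.0292) lay inside the range of the Al libraries (0.0286 to 0.0323). The gene was below the level needed for testing, and with no filter on low values its log2 fold change was -0.37 (unadjusted p = 0.0967 in limma), not called. Nlrc5 lies on chromosome 8 at 94434356 to 94527272 on the plus strand.

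Set in order of FPKM, the control libraries ran from B2m and H2-D1, whose ranges overlapped, through Tapbp, Tap2, Tap1, Tapbpl and Erap1 to H2-T23, Nlrc5 and H2-K1. The ranges of Tap1 and Tapbpl overlapped, as did those of Tapbpl and Erap1. In the Al libraries B2m and H2-D1 again overlapped at the top, followed by Tapbp and Tap2. Erap1 (3.66 to 4.10 FPKM) then stood above Tapbpl (1.55 to 3.01 FPKM) and Tap1 (1.52 to 2.36 FPKM), which overlapped each other, and H2-T23, Nlrc5 and H2-K1 were last as before.

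Dividing a library by any single factor leaves the ratio of B2m to a partner within it as it was; quantile normalization, which moves genes unequally, does not. Against H2-D1 the ratio of B2m was 1.06, 0.992 and 1.04 in the control libraries, against 1.04, 1.02 and 1.12 in the Al libraries. The groups overlapped, with a mean log2 difference of 0.04 and differences from -0.06 to 0.18 between single Al and control libraries (exact two-sided permutation test, p = 0.5, adjusted p = 0.571 over 8 ratios). Against H2-T23 the ratio of B2m also overlapped between groups (log2 difference -0.37, exact permutation p = 0.8), and without control replicate 3 its sign turned (0.32).

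B2m moved away from the transporter genes. It was 30.7, 31.9 and 43.1 times Tap1 in the control libraries, against 182, 278 and 165 times Tap1 in the Al libraries. The ratio was thus 5.83-fold higher in the Al group for Tap1, and for Tap2 it was 3.86-fold higher. B2m was 8.13 to 12.0 times Tap2 in control and 28.8 to 40.3 times Tap2 in Al libraries. For Tapbpl the ratio was 4.16-fold higher, for Erap1 2.29-fold, for Tapbp 1.64-fold and for Nlrc5 4.81-fold, the last resting on 4 to 38 reads per library. In log2 the Nlrc5 ratio differed by 2.27, by 1.25 with a pseudocount of 0.1 FPKM on both genes and by 2.86 without control replicate 3, where the Tap1 ratio differed by 2.70. In these 6 ratios all Al libraries lay above all control libraries, and the same held for 75% of the 12382 tested genes above 0 in every library when set against B2m, so 6 of 8 is at the level of genes at large. Under quantile normalization the log2 difference between B2m and Tap1 was 1.49 and that between B2m and Erap1 was 0.18. Each of the 6 within-library ratios of deposited FPKM gave an exact two-sided permutation p of 0.1, the smallest that 3 against 3 libraries allow, and an adjusted p of 0.133 over the 8 ratios, so none can pass 0.05 in this design.

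**Figure D2:**
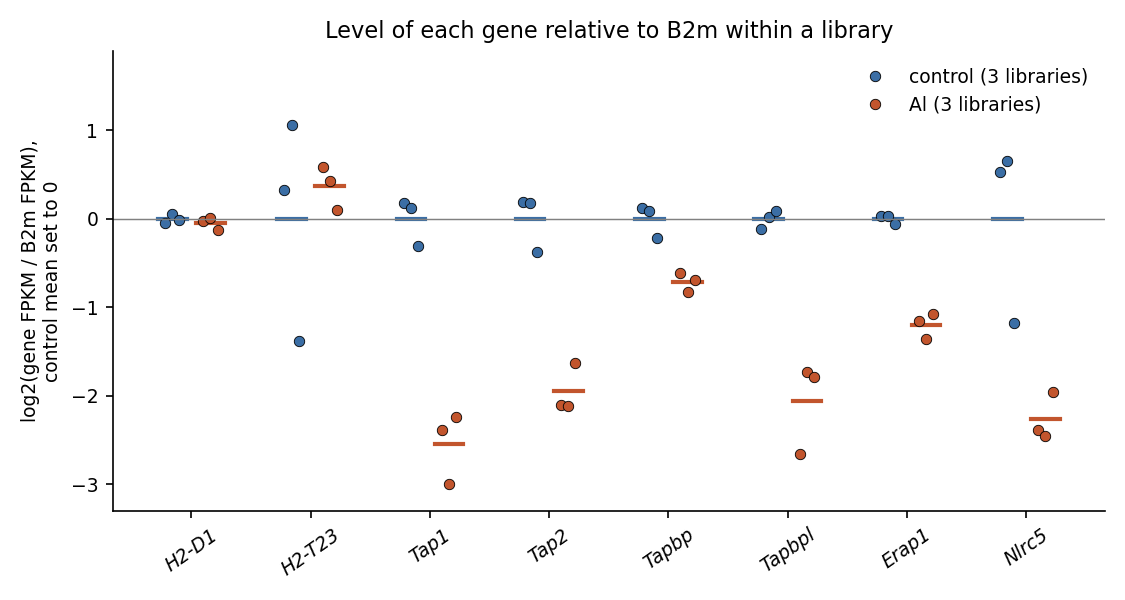
Level of each gene relative to B2m within a library, as log2(gene FPKM / B2m FPKM) with the control mean set to 0, for 3 control (blue) and 3 Al (orange) libraries; bars are group means. H2-D1 stays at the level of B2m in both groups, and Tap1, Tap2, Tapbp, Tapbpl, Erap1 and Nlrc5 have all Al points below all control points.

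The sizes of these changes depended on the scaling. The median of all tested genes was 0.03 in log2 after division by size factors, -0.43 on the deposited scale, -0.72 with equal FPKM sums and -0.03 under quantile normalization. The first 3 scalings differ by a factor per library, so a gene keeps nearly the same distance from that median under each of them; with size factors it was 1.19 for B2m, 1.14 for H2-D1 and -1.32 for Tap1. Under quantile normalization these distances were 0.50, 0.49 and -0.98. B2m (0.73) and H2-D1 (0.69) were called higher on the deposited scale.

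**Figure D3:**
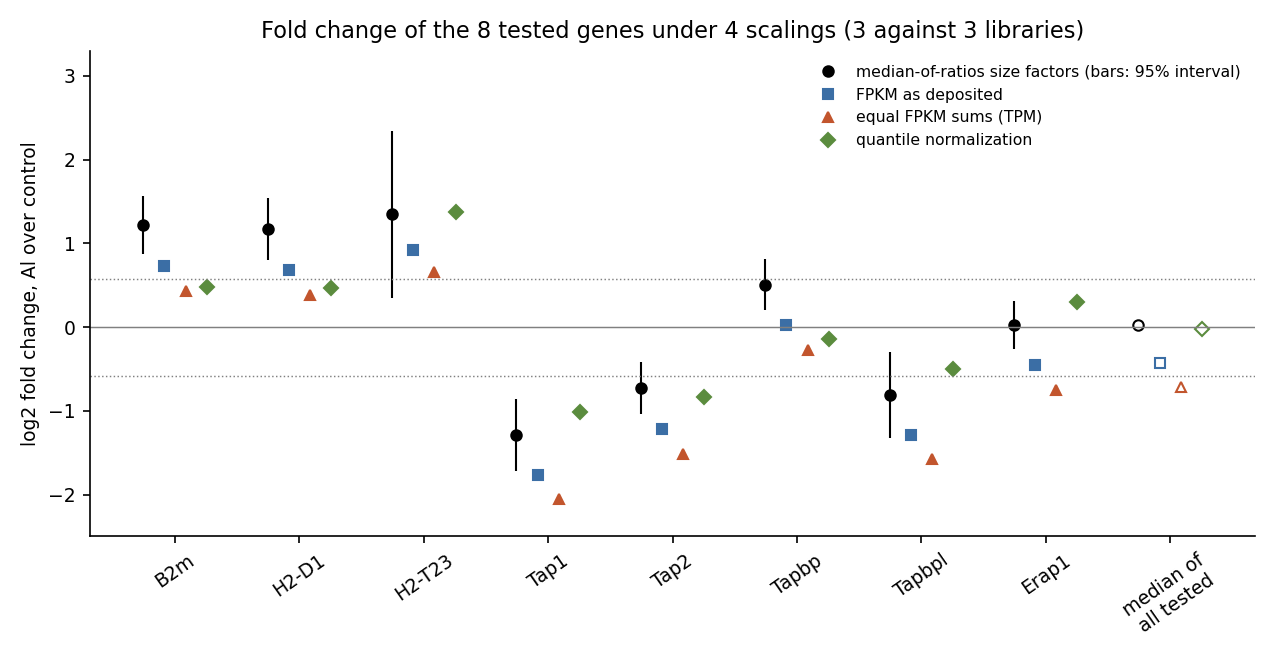
Log2 fold change, Al over control, of the 8 tested genes under 4 scalings (3 against 3 libraries), with 95% intervals for the size-factor scaling, open symbols for the median of all tested genes and dotted lines at 0.58 above and below 0. B2m, H2-D1 and H2-T23 lie above 0 and Tap1, Tap2 and Tapbpl below 0 under each scaling shown, while Tapbp and Erap1 lie on both sides of 0.

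Chaperones that fold and load class I molecules rose with B2m and H2-D1. All 6 genes of this list were called higher under size factors, with a median log2 fold change of 1.26. On the deposited scale 5 were called, under quantile normalization 3 (median 0.56) and with equal FPKM sums 1, where Ganab turned sign (-0.11). Of the 12889 tested genes, 3375 (26.2%), 1805, 2859 and 1200 were called higher in that order of scalings. Calr (calreticulin) rose from 390 ± 27.8 to 779 ± 59.6 FPKM (SD, n = 3 each; log2 fold change 1.49, adjusted p = 0.000182 in limma). Bcap31, which escorts proteins out of the endoplasmic reticulum, rose from 74.7 ± 4.71 to 134 ± 15.6 FPKM (log2 fold change 1.32, adjusted p = 0.000108). The others were Pdia3 (ERp57, the disulfide isomerase of the loading complex; log2 fold change 1.30), Canx (calnexin; 1.22), Uggt1 (a sensor of glycoprotein folding; 1.09) and Ganab (glucosidase II; 0.67). These chaperones serve many glycoproteins and not class I alone.

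B2m also pairs with class I-like proteins encoded outside the MHC. Of 3 such genes that were tested, Fcgrt and Mr1 were called lower and Hfe was not called after size factors, beside 24.4% of all tested genes called lower. Fcgrt, the neonatal Fc receptor, was at 35.5, 35.3 and 27.0 FPKM in the control libraries, against 11.6, 12.9 and 13.8 FPKM in the Al libraries. The groups did not overlap (log2 fold change -0.85, adjusted p = 0.000391 in limma). Mr1, which presents vitamin B metabolites, fell from 7.88 ± 1.25 to 3.05 ± 0.836 FPKM (SD, n = 3 each; log2 fold change -0.88, adjusted p = 0.00207 in limma). Hfe, an iron regulator, was at 0.329 to 0.377 FPKM in control and 0.0151 to 0.247 FPKM in Al libraries. Fcgrt and Mr1 were called lower under all 4 scalings, and Hfe under the 3 others (-1.21 as deposited, -1.40 with equal FPKM sums and -1.16 under quantile normalization).

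Upstream of the transporter, the proteasome and the cytosolic peptidases make the peptides. Of 7 peptidase genes 1 was called higher (Tpp2, log2 fold change 0.63), with a median of -0.04, beside 26.2% of all tested genes called higher. Tpp2 was not called on the deposited scale (0.14), with equal FPKM sums (-0.15), under quantile normalization (0.47) or without control replicate 2 (0.54). Of the 7 genes 2 were called lower on the deposited scale and 5 with equal FPKM sums. Among all 12889 tested genes 5417 and 6843 were called lower on these scales. The immunoproteasome subunits that interferon exchanges for the constitutive ones were low. Psmb8 had reads in Al replicate 3 alone (0.0387 FPKM), and Psmb9 was at 1.14 to 2.58 FPKM in control and 0.0447 to 1.06 FPKM in Al libraries, not called (log2 fold change -1.40, SE 0.76). Psmb10 was at 7.29, 7.21 and 6.66 FPKM in the control libraries, against 3.14, 3.41 and 2.84 FPKM in the Al libraries. After size factors Psmb10 was the single called gene of the 4 tested in this list (log2 fold change -0.67, adjusted p = 0.0042 in limma), beside 24.4% of all tested genes called lower. It was not called under quantile normalization (-0.40), with a pseudocount of 1 (-0.56) or without Al replicate 3 (-0.53). Of the 4 genes, 2 were called lower with a replicate block and 2 without Al replicate 1. On the deposited scale and with equal FPKM sums all 4 were called lower, beside the same 5417 and 6843 of 12889 genes. Psmb7, the constitutive subunit that Psmb10 replaces, was called higher (log2 fold change 1.06) as 1 of 3 constitutive subunits, and not called on the deposited scale (0.57), with equal FPKM sums (0.27) or under quantile normalization (0.40). Within a library Psmb10 was 7.16%, 5.68% and 5.17% of Psmb7 in the control libraries, against 1.65%, 1.86% and 1.81% in the Al libraries. Psmb9 was 2.60%, 1.87% and 0.981% of its counterpart Psmb6 in the control libraries, against 0.993%, 0.813% and 0.0461% in the Al libraries, values that overlapped between groups. The activator subunits Psme1 and Psme2 were not called (log2 fold changes -0.23 and -0.22).

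Factors that act on class I promoters were mostly not called. Of 15 tested, 2 were called higher and 12 were not called, with a median log2 fold change of 0.23, beside 26.2% of all tested genes called higher. On the deposited scale 0 were higher and 2 lower, and with equal FPKM sums 0 were higher and 6 lower. Among all 12889 tested genes 5417 and 6843 were called lower on these scales. Rfxap, a subunit of the RFX complex, was called higher (log2 fold change 0.88) and stood at 14.4 to 15.5 FPKM in control and 19.0 to 20.1 FPKM in Al libraries, but was not called on the deposited scale (0.40) or with equal FPKM sums (0.10). Nfyc, a CCAAT-binding subunit, was called just past the fold (0.59), was not called without control replicate 2 (0.55), control replicate 3 (0.56) or Al replicate 1 (0.55), and turned sign with equal FPKM sums (-0.20). Irf1 was not called (log2 fold change -0.13).

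Among 9 interferon receptor, kinase and Socs genes, 1 was called higher and 2 lower, beside 26.2% and 24.4% of all tested genes. On the deposited scale 0 were higher and 4 lower, and with equal FPKM sums 0 were higher and 8 lower. Among all 12889 tested genes 5417 and 6843 were called lower on these scales. The kinase Tyk2 fell from 8.81 ± 0.398 to 2.19 ± 1.24 FPKM (SD, n = 3 each; log2 fold change -1.61, adjusted p = 0.000932 in limma), and Ifngr2, a chain of the interferon gamma receptor, from 22.7 ± 0.931 to 10.7 ± 1.83 FPKM (-0.61, adjusted p = 0.00103; not called without Al replicate 1, -0.55). Socs3, an inhibitor of this signalling, was called higher (0.69) and turned sign with equal FPKM sums (-0.09). Of 10 interferon-stimulated genes 4 were called higher and 5 lower, beside the same 26.2% and 24.4% of all tested genes. Lower calls numbered 3 without control replicate 1, without Al replicate 2 and with voom, and control replicate 3 stood apart in the summed FPKM of the list (37.7, beside 67.6 and 67.9 in the other control libraries). Cxcl10, a chemokine, rose from 3.42 ± 0.945 to 10.8 ± 1.86 FPKM (log2 fold change 2.12, adjusted p = 5.92e-05), and the antiviral gene Ifit1 rose from 6.10 ± 2.09 to 13.8 ± 1.09 FPKM (1.71, adjusted p = 0.000385). Oas1a, an RNA sensor, fell from 2.65 ± 0.582 to 0.287 ± 0.195 FPKM (-2.52, adjusted p = 0.000588), and Ifit3 from 5.64 ± 1.82 to 1.68 ± 0.225 FPKM (-1.17, adjusted p = 0.00334). These 4 genes kept their calls under all 4 scalings.

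**Figure D4:**
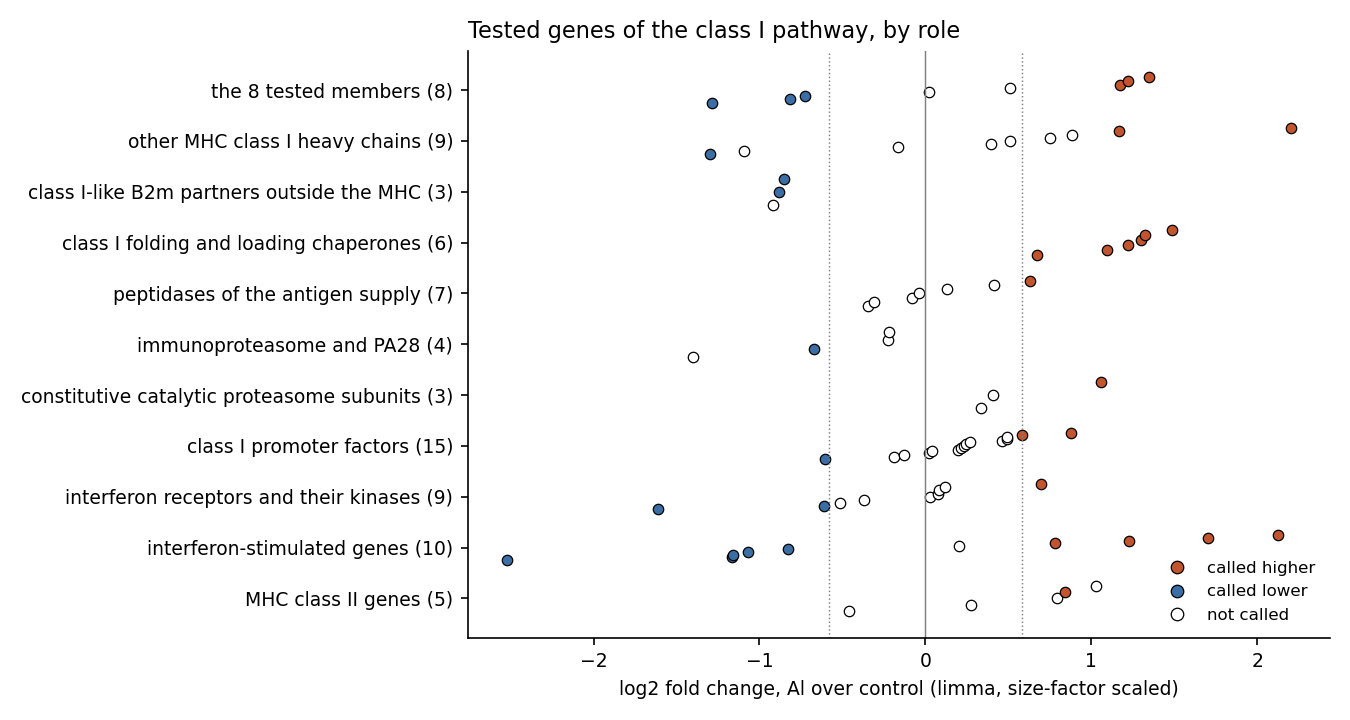
Log2 fold change, Al over control, of the tested genes of each list (number of genes in brackets), with genes called higher in orange, called lower in blue and not called in white, and dotted lines at 0.58 above and below 0. All 6 folding and loading chaperones lie right of the upper line, whereas the interferon-stimulated genes lie on both sides.

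MHC class II genes, which mark professional antigen-presenting cells, gave a check on other cell types. H2-Aa, H2-Ab1 and H2-Ob had 0 reads in all 6 libraries, and 6 of the 9 genes stayed under 1 FPKM. The 9 summed to 11.5 to 13.2 FPKM in control and 10.1 to 10.5 FPKM in Al libraries as deposited, and to 9.86 to 11.2 and 11.3 to 13.0 after scaling. Cd74 was at 3.74 to 5.94 FPKM in control and 2.52 to 2.65 FPKM in Al libraries and H2-DMb1 at 4.52 to 5.93 and 4.10 to 4.53 FPKM. Neither was called after size factors, and Cd74 was called lower on the deposited scale (-0.94) and with equal FPKM sums (-1.23). H2-DMa was the 1 gene of 5 tested that was called (log2 fold change 0.84, adjusted p = 0.00368 in limma), from 2.13 ± 0.333 to 2.77 ± 0.235 FPKM (SD, n = 3 each), and it was not called on the deposited scale (0.37). After size factors 26.2% of all tested genes were called higher. Of 8 immune cell markers 7 stayed under 1 FPKM in every library, with Ptprc, the pan-leukocyte marker, at 0.0255 FPKM or less. The summed level of the immune cell markers was 2.19 to 2.91 FPKM in control and 2.66 to 3.69 FPKM in Al libraries as deposited, and 1.88 to 2.42 and 3.33 to 4.55 after scaling. Beside the same 26.2% of all tested genes, 2 of 4 tested markers were called higher. These were Cd68 (1.47 ± 0.219 to 2.19 ± 0.506 FPKM) and Cx3cr1 (0.0665 ± 0.0275 to 0.542 ± 0.325 FPKM). On the deposited scale and with equal FPKM sums Cd68 was not called (0.54 and 0.25), and there and under quantile normalization Aif1 was called lower. The 6 astrocyte and oligodendrocyte markers stayed under 1 FPKM in every library and summed to 0.264 to 0.490 FPKM in control and 0.293 to 0.941 FPKM in Al libraries. Their part in the levels of B2m and H2-D1 was not tested. Fewer cells with a given RNA and less of it per cell cannot be told apart in these bulk libraries.

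The genes whose pattern lay nearest to that of B2m were found among 5480 others with a mean of at least 10 FPKM, by Euclidean distance of centred log2 values over the 6 libraries. They were Zfp768 (distance 0.105, log2 fold change 1.24), Bmt2 (0.114, 1.23) and Gpc1 (0.119, 1.26). None of them is a class I gene. Gpc1 was at 104 to 119 FPKM in control and 173 to 194 FPKM in Al libraries.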

How the data were processed

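RNA was measured in 6 input libraries of HT22 cells (Illumina TruSeq Stranded mRNA kit, paired-end reads). The authors deposited FPKM as a matrix of gene symbols by library, not rescaled across libraries. Their methods name Trimmomatic, SortMeRNA and HISAT2 on GRCm38/mm10, while the submitters' processing notes name fastp, HISAT2 and HTSeq on GRCm39; the program and annotation behind the FPKM are not given in the sources used here, nor whether a read pair counted once. Samples labelled C are the control and those labelled M the Al group, as the study's design and methods imply.

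Each FPKM is a whole number of reads times a step set by gene length and library total, so reads were recovered for 17688 genes, all within 0.001 of a whole number. FPKM divided by median-of-ratios size factors (from genes present in every library and averaging 1 FPKM or more) plus 0.1 was taken to log2, so fold changes of low genes are understated. Testing covered the 12889 genes averaging 0.1 FPKM or more, with limma 3.58.1 (lmFit, eBayes with trend) in R 4.3.3. P-values were adjusted over these genes by Benjamini-Hochberg. The authors' own test, DESeq2, needs counts; limma voom on the recovered reads was the alternative. Ratios were tested by exact permutation with scipy 1.17.1. On simulated data of 12911 genes, 200 were changed by a log2 fold change of 2 between Al and control. Of these 100% were recovered, and of the others 0.504% were called. In the 6 libraries 26.2% of the 12889 tested genes were called higher and 24.4% lower. The rate of false calls at such shares was not tested.

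The members and the gene lists were chosen with earlier results of these data known. The rule for names took all members, up to 2 called genes per direction and list at 1 FPKM or more on average, and the 3 genes nearest to B2m; other names complete a count or a list. Sequences and motif shares come from RefSeq on GRCm38.p6, gene positions and transcript windows from GENCODE on GRCm38, so positions need not match the build of the files. Alternatives covered scaling, pseudocount, filter, trend, replicate block and each library left out. The remaining promoter factor is not reported here, and the immunoprecipitated libraries were not analysed here. Figures were drawn with matplotlib 3.10.9.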

Additional observations from a re-analysis of the deposited data

How the results depend on the processing

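Over all tested genes, 3375 were called higher and 3143 lower. The deposited scale gave 1805 and 5417, equal FPKM sums (TPM) gave 1200 and 6843, and quantile normalization gave 2859 and 3115. The share of higher calls was 51.8%, 25.0%, 14.9% and 47.9% in that order. Leaving out each library gave 3197 to 3468 higher and 2962 to 3295 lower. Of the members, 3 were called higher and 3 lower. With equal FPKM sums 0 members were higher and 4 lower; B2m (0.43) and H2-D1 (0.39) kept an unadjusted limma p under 0.05 but not the fold, and H2-T23 (0.66) the fold but not the p (0.173). Quantile normalization gave 1 higher and 2 lower, and leaving out each library gave 3 to 4 higher and 2 to 3 lower. Tapbp turned sign with equal FPKM sums (-0.28) and quantile normalization (-0.14). Erap1 turned sign on the deposited scale (-0.46), with equal FPKM sums (-0.75) and without control replicate 2 (-0.02) or Al replicate 1 (-0.04), with a range of -0.042 to 0.073 over the libraries left out. The log2 difference of the B2m to H2-T23 ratio ran from -0.90 to 0.32, above 0 without control replicate 3 alone. The cause of these changes was not tested. The other pseudocounts, the filters, the fit without a trend and voom on the recovered reads kept 3 members lower and 2 to 3 higher.

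Same-numbered control and Al libraries did not deviate together (correlations of deviations from the group means -0.03, -0.03 and -0.07 over 12889 genes), so the numbers were not taken as pairs. With a replicate block 3352 genes were called higher and 3123 lower, and members stood at 3 and 3. Few reads were assigned to Nlrc5 (at most 38 in a library) and H2-K1 (at most 1), and 3 libraries per group keep every ratio test at a p of 0.1 or more.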
